A study of Mus musculus with 8 samples.

Results

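The 35 genes described here encode the proteins that copy DNA in S phase, and they were chosen by symbol from a written list out of 24421 symbols in the count table. They comprise 5 licensing factors, the 6 subunits of the MCM helicase, 4 factors that turn the helicase on, 4 polymerase and primase genes, 6 genes of the sliding clamp, its loader and the single-strand binding protein, 2 genes that finish Okazaki fragments, 5 genes of nucleotide supply and 3 genes of chromatin copying. All 35 were in the table, and 34 had enough counts to be tested. The licensing factor Orc1 had too few.

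The study measured poly(A) RNA of perfused livers in 8 libraries, 4 labelled CAPZ_KO and 4 labelled WT. CAPZ_KO mice carried Albumin-CreERT2 and floxed Capzb, and received 5 daily intraperitoneal injections of tamoxifen that began at 4 to 6 weeks of age. The albumin promoter drives the recombinase in hepatocytes, so that Capzb, which encodes subunit beta of the protein that caps actin filaments, is removed there and kept in the other liver cells. WT mice were either floxed without the recombinase and injected, or carried the recombinase and floxed Capzb without injection. Which WT library is which is not stated in the labels, and an effect of tamoxifen cannot be told apart from that of the deletion. All mice were C57BL/6N, carried floxed Capzb and were 8 to 10 weeks old. The labels list the replicates as separate samples but do not state an animal for each, and the p-values cover only the spread between libraries.

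Total counts were 13122355 to 16984971 in CAPZ_KO and 12060350 to 18916315 in WT libraries. Values are given as CPM, counts scaled to library size after TMM normalisation, whose factors were 1.18 to 1.33 in CAPZ_KO and 0.774 to 0.847 in WT. Capzb, the targeted gene, had 69.4, 79.6, 64.5 and 76.4 CPM in CAPZ_KO 1 to 4, against 139.6, 109, 118 and 114 CPM in WT 1 to 4, so every CAPZ_KO library lay below every WT library (log2 fold change −0.73 ± 0.125 (SE), adjusted p = 0.00134 in edgeR). Scaled by library sizes alone the log2 fold change of Capzb was −0.10 (adjusted p = 0.442 in edgeR), where the median of all genes was 0.62. CAPZ_KO 4 and WT 4 carried female RNA and the other libraries male RNA, as read from Xist and Y-linked genes. Marker lists of liver cell types were counted in the same way, where 22.4% of all tested genes were higher and 19% lower. Of 10 hepatocyte markers 0 were higher and 9 lower, with summed levels of 44600 to 64980 CPM in CAPZ_KO and 181500 to 228500 CPM in WT. Of 7 tested cholangiocyte markers 4 were higher (369 to 1088 CPM in CAPZ_KO, 42.9 to 79.6 CPM in WT), of 8 stellate cell markers 7 were higher (811 to 1235 CPM in CAPZ_KO, 345 to 412 CPM in WT), and of 8 monocyte and macrophage markers 6 were higher (448 to 781 CPM in CAPZ_KO, 281 to 485 CPM in WT). Kupffer cell markers had 2 of 6 higher (987 to 3337 CPM in CAPZ_KO, 469 to 1334 CPM in WT), neutrophil markers 1 of 4 (24.1 to 40.9 CPM in CAPZ_KO, 5.96 to 28.8 CPM in WT) and endothelial markers 2 higher and 1 lower of 8 (397 to 609 CPM in CAPZ_KO, 376 to 567 CPM in WT). Of 6 T and NK cell markers (8.41 to 15.7 CPM in CAPZ_KO, 4.61 to 18.3 CPM in WT) and 6 B and plasma cell markers (15.5 to 27.7 CPM in CAPZ_KO, 6.32 to 32.9 CPM in WT), 0 were called in either direction, and of 5 erythroid markers 2 were lower, with Hba-a1 and Hbb-bs at 0 in every library (48.1 to 87.3 CPM in CAPZ_KO, 59.5 to 184.5 CPM in WT). In bulk RNA more cells that copy DNA and more of these RNAs in each cell cannot be told apart, and the part of the cell types in the results below was not tested.

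DNA replication is prepared in G1, when ORC, CDC6 and CDT1 load the MCM2-7 ring onto origins, and geminin (Gmnn) holds CDT1 in check once S phase has begun. CDC45 and the GINS complex then join the ring to make the active helicase, polymerase alpha with primase starts each strand, and polymerases epsilon and delta extend them on the PCNA clamp. Transcription of many of these genes is held down by E2F and RB family proteins in resting cells and released as cells enter the cycle. Adult hepatocytes rarely divide, but they can enter S phase again after injury.

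Of 34 replication genes with enough counts, 18 had higher and 2 had lower levels in CAPZ_KO than in WT livers (edgeR quasi-likelihood test over all genes, Benjamini-Hochberg adjusted p under 0.05). Over all 12985 genes tested, 22.4% were higher and 19% lower, against 52.9% of the replication genes higher. The median log2 fold change was 0.67 over the replication genes and −0.0029 over all genes. By at least 2-fold, 12 replication genes were higher, where 14.1% of all tested genes passed the same rule. In 16 of the 35, Orc1 among them, all CAPZ_KO libraries lay above all WT libraries, and in 2 all lay below, against 22.1% above and 18.2% below of the tested genes. The 14 genes that missed the threshold had log2 fold changes of −0.39 to 0.96.

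**Figure D1:**
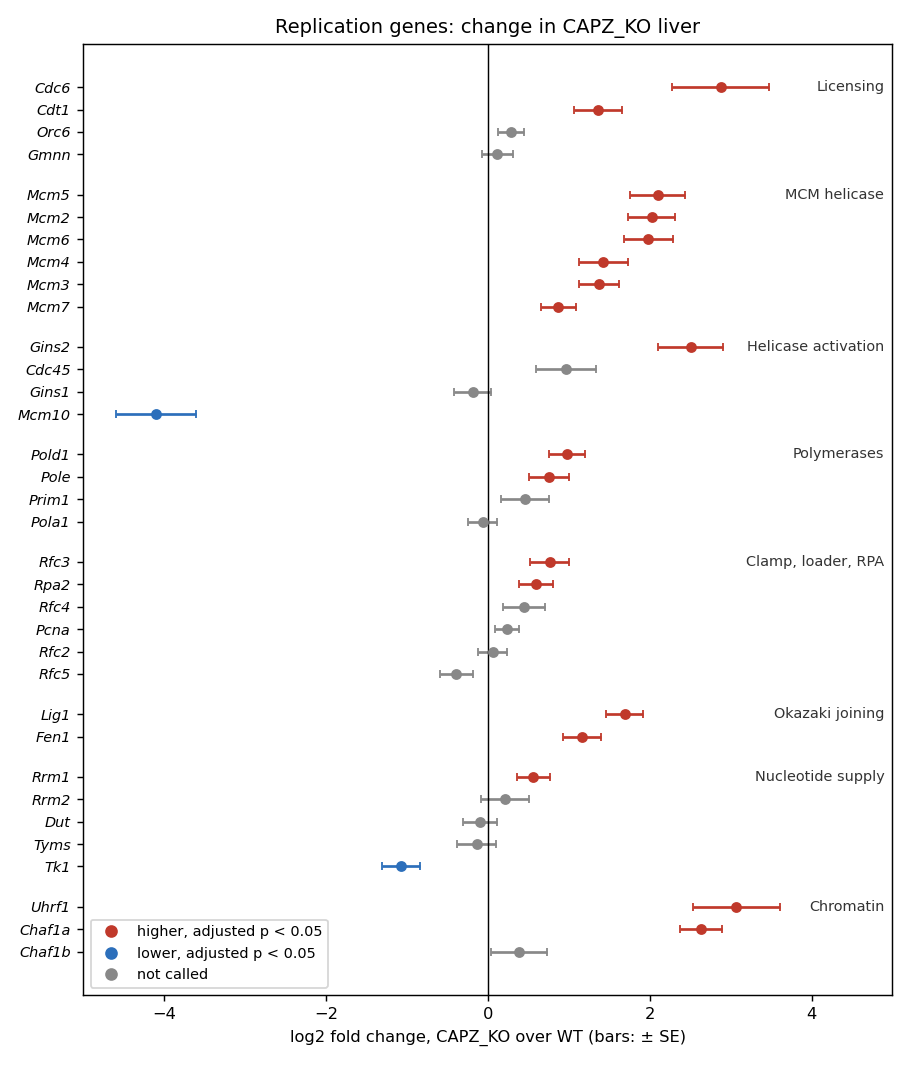
Log2 fold change of CAPZ_KO over WT (horizontal axis) for the 34 tested replication genes, ordered by role, with bars of ± 1 SE from edgeR and colours for genes higher, lower and not called. The 6 MCM genes all lie right of 0, most other roles hold both called and uncalled genes, and Mcm10 stands alone at −4.10.

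Most complexes held both called and uncalled genes. Both genes that finish Okazaki fragments and all 6 of the MCM ring were higher. So were 2 of 4 tested licensing factors, 1 of 4 helicase activators, 2 of 4 polymerase and primase genes, 2 of 6 genes of clamp, loader and single-strand binding, 1 of 5 nucleotide genes and 2 of 3 chromatin genes. Over all tested genes 22.4% were higher and 19% lower, and the counts of several roles lie near these shares. The 2 lower genes were Mcm10, a helicase activator, and Tk1, a thymidine kinase. With scaling by library sizes alone, the median of all genes moved by 0.63, 28 replication genes were higher and 1 lower. The calls of Pole, Rfc3, Rpa2 and Rrm1 were lost in several alternatives, while 14 genes were higher in every setting run: Cdc6, Cdt1, Mcm2, Mcm3, Mcm4, Mcm5, Mcm6, Mcm7, Gins2, Pold1, Lig1, Fen1, Uhrf1 and Chaf1a. Among them Cdc6 and Gins2 had few counts in WT and passed the filter on low counts through the CAPZ_KO libraries.

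**Figure D2:**
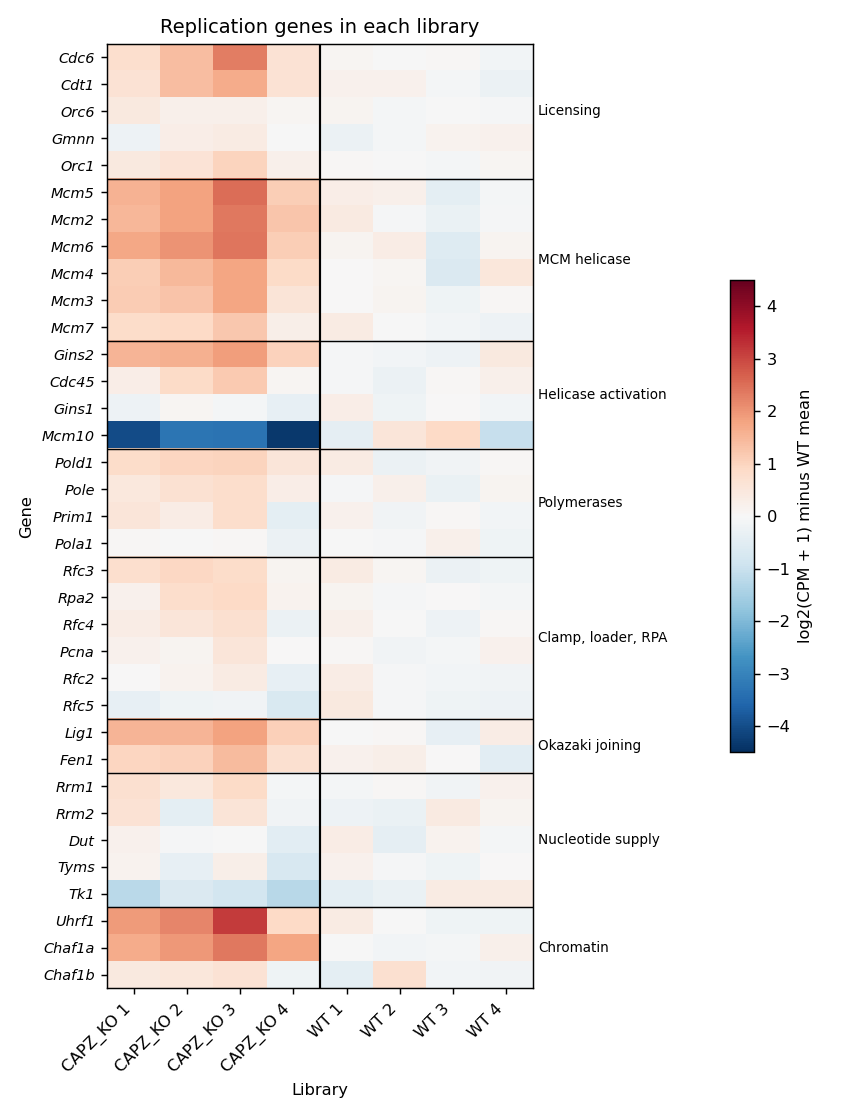
Heat map of log2(CPM + 1) minus the WT mean for the 35 replication genes (rows, by role) in each library (columns, CAPZ_KO left of the line and WT right of it), red for higher and blue for lower. The rows of the MCM genes, Lig1, Fen1, Uhrf1 and Chaf1a are red in the CAPZ_KO columns with the deepest red in CAPZ_KO 3, and the Mcm10 and Tk1 rows are blue.

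Promoters of the genes were read because E2F proteins are the known regulators of this group. RefSeq windows of 250 bases before to 50 bases after the start (GRCm38.p6) were found for 29 of the 35 genes, in 34 windows, with no entry for Gmnn, Mcm4, Gins1, Gins2, Pole and Rfc2. Each window was searched on both strands for TTTCGCGC, TTTGGCGC, TTTCCCGC and TTTGCCGC, words of the E2F type. The windows below are those of the gene with the largest log2 fold change in each role where an entry exists, with Mcm10 as one of the 2 lower genes and Pcna and Pola1 as genes that were not called. The window of Tk1, the other lower gene, held no word and is not printed. For helicase activation the gene with the largest log2 fold change, Gins2, has no entry. Cdc45, the next in that role, has a window without a word that is not printed. Where a gene has several windows, as Lig1 and Uhrf1 do, the window with a word is shown. They run 5′ to 3′ on the strand of the gene, and capitals mark the E2F-type words. Their positions are chr11:98907901-98908200 (plus strand) for Cdc6, chr8:75109259-75109558 (plus strand) for Mcm5, chr7:44548766-44549065 (minus strand) for Pold1, chr5:151651159-151651458 (minus strand) for Rfc3 and chr7:13278576-13278875 (plus strand) for Lig1. They are chr7:102441445-102441744 (plus strand) for Rrm1, chr17:56304063-56304362 (plus strand) for Uhrf1, chr2:5012742-5013041 (minus strand) for Mcm10, chr2:132253131-132253430 (minus strand) for Pcna and chrX:93632106-93632405 (minus strand) for Pola1.
Cdc6: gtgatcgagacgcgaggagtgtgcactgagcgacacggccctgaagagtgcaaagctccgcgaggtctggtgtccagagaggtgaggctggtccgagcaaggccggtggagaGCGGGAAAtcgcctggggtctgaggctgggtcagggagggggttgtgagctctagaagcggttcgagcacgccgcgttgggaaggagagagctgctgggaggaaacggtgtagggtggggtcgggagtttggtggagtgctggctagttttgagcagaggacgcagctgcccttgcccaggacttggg
Mcm5: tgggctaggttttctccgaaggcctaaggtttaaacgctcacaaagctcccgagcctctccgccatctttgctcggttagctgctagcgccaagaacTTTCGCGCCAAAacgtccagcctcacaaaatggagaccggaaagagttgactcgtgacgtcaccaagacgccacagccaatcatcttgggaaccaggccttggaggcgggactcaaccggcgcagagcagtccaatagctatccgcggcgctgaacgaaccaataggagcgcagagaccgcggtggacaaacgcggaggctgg
Pold1: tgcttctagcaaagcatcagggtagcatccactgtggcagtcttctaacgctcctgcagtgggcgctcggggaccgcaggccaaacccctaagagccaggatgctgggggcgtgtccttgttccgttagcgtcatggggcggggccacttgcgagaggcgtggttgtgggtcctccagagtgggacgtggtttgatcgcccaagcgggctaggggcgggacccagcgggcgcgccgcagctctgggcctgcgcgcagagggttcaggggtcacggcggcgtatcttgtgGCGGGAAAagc
Rfc3: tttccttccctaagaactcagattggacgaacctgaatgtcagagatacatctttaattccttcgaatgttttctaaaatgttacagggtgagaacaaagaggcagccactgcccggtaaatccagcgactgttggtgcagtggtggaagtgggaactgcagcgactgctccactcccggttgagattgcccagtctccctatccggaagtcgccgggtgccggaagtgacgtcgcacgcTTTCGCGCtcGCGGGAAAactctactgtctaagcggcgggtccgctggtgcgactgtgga
Lig1: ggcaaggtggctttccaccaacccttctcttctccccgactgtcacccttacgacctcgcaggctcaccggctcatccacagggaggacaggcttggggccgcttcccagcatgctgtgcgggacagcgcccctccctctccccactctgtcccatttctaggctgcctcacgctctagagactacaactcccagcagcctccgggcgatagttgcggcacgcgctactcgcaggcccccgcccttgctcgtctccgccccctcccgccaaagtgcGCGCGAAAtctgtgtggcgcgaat
Rrm1: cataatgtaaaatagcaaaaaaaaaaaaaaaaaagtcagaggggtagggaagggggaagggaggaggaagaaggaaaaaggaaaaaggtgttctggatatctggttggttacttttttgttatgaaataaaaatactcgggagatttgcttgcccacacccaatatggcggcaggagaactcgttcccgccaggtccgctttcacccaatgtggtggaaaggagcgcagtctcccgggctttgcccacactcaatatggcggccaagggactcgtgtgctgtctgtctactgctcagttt
Uhrf1: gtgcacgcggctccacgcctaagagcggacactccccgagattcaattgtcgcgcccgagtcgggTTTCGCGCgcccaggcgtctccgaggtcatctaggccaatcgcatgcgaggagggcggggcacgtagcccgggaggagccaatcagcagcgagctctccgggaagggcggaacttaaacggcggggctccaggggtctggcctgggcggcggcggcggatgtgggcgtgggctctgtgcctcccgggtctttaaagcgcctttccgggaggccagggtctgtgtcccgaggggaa
Mcm10: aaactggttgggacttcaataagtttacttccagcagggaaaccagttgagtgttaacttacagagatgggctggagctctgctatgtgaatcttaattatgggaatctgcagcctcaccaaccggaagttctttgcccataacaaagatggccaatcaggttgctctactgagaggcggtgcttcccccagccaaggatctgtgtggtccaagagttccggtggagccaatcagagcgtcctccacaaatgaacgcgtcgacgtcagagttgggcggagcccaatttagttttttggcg
Pcna: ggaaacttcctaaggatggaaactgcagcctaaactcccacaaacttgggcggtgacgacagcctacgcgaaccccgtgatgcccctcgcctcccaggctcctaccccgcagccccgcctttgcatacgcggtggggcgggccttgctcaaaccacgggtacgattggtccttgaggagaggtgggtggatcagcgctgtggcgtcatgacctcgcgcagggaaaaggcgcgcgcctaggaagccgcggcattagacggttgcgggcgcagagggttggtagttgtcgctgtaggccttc
Pola1: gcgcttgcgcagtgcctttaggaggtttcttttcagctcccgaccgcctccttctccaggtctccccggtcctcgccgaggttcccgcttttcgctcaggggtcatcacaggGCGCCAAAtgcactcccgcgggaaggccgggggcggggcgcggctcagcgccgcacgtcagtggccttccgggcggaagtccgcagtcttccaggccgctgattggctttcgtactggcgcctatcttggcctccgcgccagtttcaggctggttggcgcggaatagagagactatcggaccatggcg

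An E2F-type word stood in the window of 12 of the 29 genes, or 41.4%, against 4.5% of 9939 tested genes with an entry and 2.6% of all 27025 genes with one. The genes with a word were Cdc6, Cdt1, Orc1, Mcm3, Mcm5, Mcm6, Mcm7, Pold1, Pola1, Rfc3, Lig1 and Uhrf1. Read against the expression calls, 10 of the 15 higher genes with an entry held a word, 1 of the 11 uncalled genes (Pola1) and 0 of the 2 lower genes, while over all tested genes the shares were 5.17% of those higher, 4.05% of those lower and 4.39% of those not called. A gene was counted if any of its windows held a word, and some higher genes had several windows. By window the shares were 50% of 20 for the higher genes and 9.09% of 11 for the uncalled ones, against 3.7% over all tested genes. The window of Mcm10, a lower gene, ends in TTTGGCG, which is TTTGGCGC without its last base. Whether that word stands there cannot be read from the window. In Mcm5 the words TTTCGCGC and TTTGGCGC lie on opposite strands and overlap, with first bases 153 and 149 bases before the start, and Mcm6 holds such an overlapping pair and a further TTTGGCGC 47 bases before its start. The 18 matches lay between 185 bases before the start and base 40 after it. Mcm2, Rpa2, Fen1, Rrm1 and Chaf1a were higher and held no word in the windows searched. Only exact words were counted, and the shares depend on that choice. Close forms were left out, such as TTCCCGCCAAA in Chaf1a, TTCCCGCC in Rrm1 and in the uncalled Prim1, and GGCGGGAA in the uncalled Rfc4. TTTCGCGC occurs in 0.323%, TTTGGCGC in 0.514%, TTTCCCGC in 1.07% and TTTGCCGC in 0.441% of all windows, and the last was in none of the replication genes.

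The CCAAT box, searched as CCAAT on both strands, is a general promoter element that is also common in genes of G2 and mitosis. It was found in 18 of the 29 replication genes, or 62.1%, and in 42.6% of tested genes with an entry. For comparison, 16 genes of mitosis were read in the same way, of which 14 had an entry. A CCAAT was present in 13 of these 14 and an E2F-type word in 1. A match of this kind describes the letters of a window and does not show binding.

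**Figure D3:**
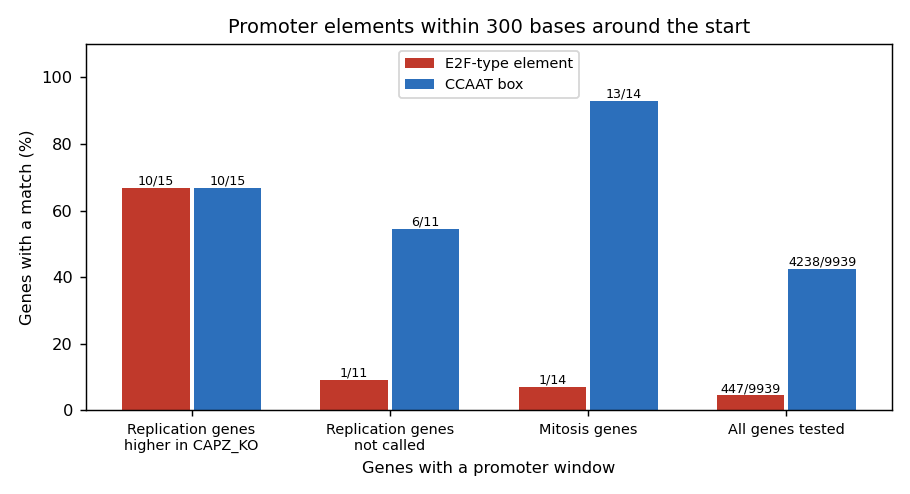
Share of genes with a promoter entry (vertical axis, percent) whose window holds an E2F-type word (red) or CCAAT (blue), for replication genes higher in CAPZ_KO, replication genes not called, mitosis genes and all genes tested. The red bar is tallest for the higher replication genes (66.7%) and low for the uncalled ones (9.09%), while the tallest blue bar is that of the mitosis genes (92.9%).

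Among the licensing factors, Cdc6 and Cdt1 were higher. Cdc6, an ATPase that works with ORC to load the helicase, had 1.31, 2.54, 5.74 and 1.12 CPM in CAPZ_KO 1 to 4, against 0.429, 0.329, 0.426 and 0.259 CPM in WT 1 to 4. Its 4 CAPZ_KO libraries lay above all WT libraries, with CAPZ_KO 3 highest, and the log2 fold change of 2.88 ± 0.596 (SE, adjusted p = 0.00368 in edgeR) was 2.16 without CAPZ_KO 3. Cdc6 was near the floor in WT, with 4, 5, 6 and 4 counts in WT 1 to 4, and passed the filter on low counts only through its CAPZ_KO libraries. Cdt1, which brings the MCM ring to the origin, had 5.95, 10.5, 13.1 and 5.98 CPM in CAPZ_KO 1 to 4, against 4.08, 4.01, 3.12 and 2.66 CPM in WT 1 to 4. Its groups did not overlap, and its log2 fold change was 1.36 ± 0.297 (SE, adjusted p = 0.00489 in edgeR). Orc1, the largest subunit of the origin recognition complex, was near the limit of detection, with 47 counts over the CAPZ_KO libraries and 4 over the WT libraries. Its levels were 0.451, 0.648, 1.15 and 0.256 CPM in CAPZ_KO 1 to 4, all above the 0.107, 0.0658, 0 and 0.1297 CPM of WT 1 to 4, and without a filter on low counts it had a log2 fold change of 2.94 (adjusted p = 0.0095 in edgeR).

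The other licensing genes were not called. Orc6, a further subunit of the origin recognition complex, averaged 7.26 ± 0.803 CPM in CAPZ_KO and 5.96 ± 0.471 CPM in WT (SD, n = 4 each), a log2 fold change of 0.29 ± 0.1603 (SE) that missed the threshold (adjusted p = 0.174 in edgeR), and 6.93% of its exon bases overlap Vps35 on the opposite strand. Gmnn, which encodes the CDT1 inhibitor geminin, had 8.11, 12.2, 12.8 and 9.51 CPM in CAPZ_KO 1 to 4, against 7.94, 9.21, 10.9 and 11.2 CPM in WT 1 to 4. The ranges of its groups overlapped almost wholly (log2 fold change 0.11 ± 0.191 (SE), adjusted p = 0.657 in edgeR). The count ratio of Cdt1 to Gmnn within a library was 0.629 to 1.02 in CAPZ_KO and 0.237 to 0.513 in WT.

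All 6 genes of the MCM2-7 ring, the motor that unwinds the double helix, were higher in CAPZ_KO. Summed over the 6, the libraries CAPZ_KO 1 to 4 held 103.4, 122.1, 169 and 72.7 CPM, against 46.3, 42.7, 29.5 and 40.3 CPM in WT 1 to 4. Every CAPZ_KO sum exceeded every WT sum. Mcm5 had 11.9, 14.3, 23.95 and 8.49 CPM in CAPZ_KO 1 to 4, against 4.29, 4.15, 2.2 and 3.11 CPM in WT 1 to 4, and Mcm2 had 13.1, 16.4, 24.9 and 10.7 CPM in CAPZ_KO 1 to 4, against 5.58, 3.82, 2.98 and 3.76 CPM in WT 1 to 4. Their log2 fold changes were 2.10 ± 0.338 and 2.02 ± 0.2904 (SE), with adjusted p of 0.000931 and 0.0004703 in edgeR. Mcm6, the most abundant of the 6 in CAPZ_KO, had 28.5, 34.7, 45.8 and 18.2 CPM in CAPZ_KO 1 to 4, against 8.58, 10.1, 4.83 and 8.62 CPM in WT 1 to 4, with no overlap and a log2 fold change of 1.98 ± 0.302 (SE, adjusted p = 0.000722 in edgeR).

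Mcm4 and Mcm3 had smaller log2 fold changes. Mcm4 averaged 14.8 ± 4.35 CPM in CAPZ_KO and 5.46 ± 1.99 CPM in WT (SD, n = 4 each), a log2 fold change of 1.43 ± 0.298 (SE, adjusted p = 0.00392 in edgeR), and Mcm3 averaged 17.5 ± 6.303 CPM in CAPZ_KO and 6.74 ± 0.741 CPM in WT (SD, n = 4 each), a log2 fold change of 1.37 ± 0.249 (SE, adjusted p = 0.00183 in edgeR). Mcm7 had the smallest rise of the ring and the only overlap, with 21.7, 22.7, 28.5 and 14.6 CPM in CAPZ_KO 1 to 4, against 15.7, 11.6, 10.9 and 9.92 CPM in WT 1 to 4. The lowest CAPZ_KO library, CAPZ_KO 4, lay below WT 1 there, and the log2 fold change was 0.87 ± 0.216 (SE, adjusted p = 0.009495 in edgeR). Mir25 and Mir93 lie within Mcm7 on the same strand and had almost no counts of their own. Per kilobase of exon, Mcm6 was the highest and Mcm2 the lowest of the 6 in each CAPZ_KO library, whereas Mcm7 was the highest and Mcm2 the lowest in each WT library. On this scale the highest subunit exceeded the lowest 2.52- to 3.25-fold in CAPZ_KO and 4.15- to 5.72-fold in WT, so the 6 levels lay closer together in CAPZ_KO. The order and the spread depend on the annotated exon lengths, which join all transcripts of a gene (6956 bases for Mcm2). By mean CPM, Mcm5 was below Mcm2 in both groups (14.7 and 16.3 CPM in CAPZ_KO, 3.44 and 4.03 CPM in WT). The count ratio of Mcm6 to Mcm7 was 1.25 to 1.61 in CAPZ_KO and 0.444 to 0.869 in WT.

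**Figure D4:**
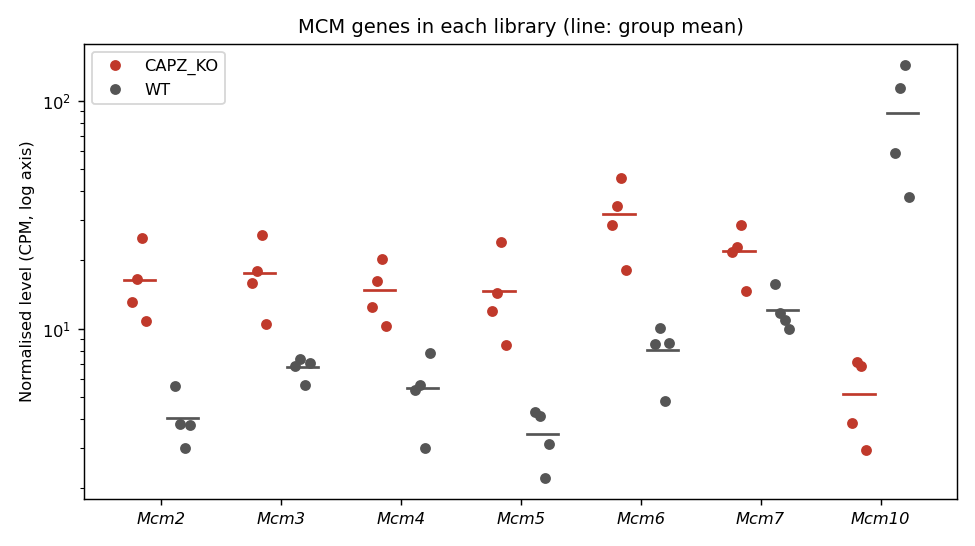
Normalised level (CPM, log axis) of the 6 MCM ring genes and Mcm10 in each library, red for CAPZ_KO and grey for WT, with a line at the group mean. The red points stand above the grey ones in the ring genes, with overlap in Mcm7, and Mcm10 is reversed, at 2.91 to 7.12 CPM in CAPZ_KO and 37.7 to 144.3 CPM in WT.

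The genes that turn the loaded ring into a working helicase split. Gins2, a subunit of the GINS complex, had 3.605, 3.84, 4.96 and 2.301 CPM in CAPZ_KO 1 to 4, against 0.536, 0.461, 0.355 and 1.17 CPM in WT 1 to 4. No CAPZ_KO library overlapped a WT one, and its log2 fold change was 2.51 ± 0.401 (SE, adjusted p = 0.000868 in edgeR). Gins2 was low in WT, with 5, 7, 5 and 18 counts in WT 1 to 4, and passed the filter on low counts through its CAPZ_KO libraries. Of the exon bases of Gins2, 67.3% lie under exons of Gse1 on the opposite strand, whose own log2 fold change was 0.57 (adjusted p = 0.00752 in edgeR), and the strand setting of the counting is not given in the sources used here. Gins1, another subunit of the same complex, had 3.15, 4.08, 3.51 and 2.71 CPM in CAPZ_KO 1 to 4, against 4.93, 3.16, 3.904 and 3.44 CPM in WT 1 to 4. Its ranges overlapped, with a log2 fold change of −0.19 ± 0.226 (SE, adjusted p = 0.53 in edgeR). The count ratio of Gins2 to Gins1 was 0.849 to 1.41 in CAPZ_KO and 0.0909 to 0.34 in WT, without overlap. Cdc45, which completes the active helicase, averaged 2.9 ± 1.38 CPM in CAPZ_KO and 1.47 ± 0.345 CPM in WT (SD, n = 4 each) and missed the threshold (log2 fold change 0.96 ± 0.373 (SE), adjusted p = 0.06099 in edgeR). It passed by DESeq2 (adjusted p = 0.0465) and without CAPZ_KO 4 (adjusted p = 0.0267 in edgeR).

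Mcm10, which binds the MCM ring as it fires but is not part of it, went the other way and had the largest change of all 34 genes. It had 3.83, 7.12, 6.83 and 2.91 CPM in CAPZ_KO 1 to 4, against 58.9, 114, 144 and 37.7 CPM in WT 1 to 4. Every CAPZ_KO library lay far below every WT library, and the WT libraries themselves spread widely, with WT 4 lowest and WT 3 highest. The log2 fold change was −4.10 ± 0.492 (SE, adjusted p = 0.000281 in edgeR), and it was −4.37 to −3.77 when any 1 library was left out. The gene lies on chromosome 2 from 4989714 to 5012791 (minus strand, GRCm38). Per kilobase of exon it ranked 31 of 35 in CAPZ_KO (0.673 RPKM) and 1 of 35 in WT (11.5 RPKM). The annotation holds 10 transcripts of Mcm10, of which 2 are coding and 7 retain an intron, and gene counts do not tell which of them was measured. The count ratio of Mcm2 to Mcm10 was 2.31 to 3.68 in CAPZ_KO and 0.0207 to 0.0998 in WT. The summed level of all 35 genes overlapped between the groups, at 268.1 to 511.9 CPM in CAPZ_KO and 292 to 382 CPM in WT, and without Mcm10 it was 265.1 to 505.1 CPM in CAPZ_KO and 235.7 to 266.6 CPM in WT.

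Of the polymerase genes, the catalytic subunits of the extending polymerases passed the test and those of the starting complex did not. Pold1, the catalytic subunit of polymerase delta, had 7.39, 8.32, 8.47 and 5.93 CPM in CAPZ_KO 1 to 4, against 5.15, 3.03, 3.26 and 3.96 CPM in WT 1 to 4. All CAPZ_KO libraries exceeded all WT libraries, with a log2 fold change of 0.98 ± 0.218 (SE, adjusted p = 0.005402 in edgeR). Pole, the catalytic subunit of polymerase epsilon, had 3.33, 4.04, 4.42 and 2.86 CPM in CAPZ_KO 1 to 4, against 2.04, 2.63, 1.56 and 2.399 CPM in WT 1 to 4, also without overlap. Its log2 fold change was 0.75 ± 0.248 (SE, adjusted p = 0.0334 in edgeR), a call that was lost without CAPZ_KO 1, 2 or 3 or without WT 1 or 3 (adjusted p = 0.0536 to 0.105 in edgeR). Pola1, the catalytic subunit of polymerase alpha, had 6.22, 5.88, 6.29 and 4.86 CPM in CAPZ_KO 1 to 4, against 6.01, 5.79, 7.31 and 5.19 CPM in WT 1 to 4. Its groups overlapped (log2 fold change −0.06 ± 0.179 (SE), adjusted p = 0.798 in edgeR). Prim1, the catalytic subunit of primase, averaged 5.21 ± 1.98 CPM in CAPZ_KO and 3.801 ± 0.554 CPM in WT (SD, n = 4 each), with a log2 fold change of 0.46 ± 0.299 (SE) that missed the threshold (adjusted p = 0.245 in edgeR) but passed without CAPZ_KO 4 (adjusted p = 0.0376 in edgeR).

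Pcna, the sliding clamp and a common marker of dividing cells, was not called. It had 30.96, 29.6, 39.6 and 27.2 CPM in CAPZ_KO 1 to 4, against 28.3, 23.8, 25.6 and 30.6 CPM in WT 1 to 4. CAPZ_KO 3 was the highest library, and the other CAPZ_KO libraries lay within or near the WT range (log2 fold change 0.23 ± 0.147 (SE), adjusted p = 0.226 in edgeR). Per kilobase of exon Pcna ranked 1 of 35 in CAPZ_KO (13.3 RPKM) and 2 of 35 in WT (11.3 RPKM). Of 4 listed subunits of the clamp loader, replication factor C, Rfc3 was called and the other three were not. Rfc3 had 10.1, 11.8, 10.7 and 6.24 CPM in CAPZ_KO 1 to 4, against 7.62, 6.05, 4.47 and 4.86 CPM in WT 1 to 4, with CAPZ_KO 4 inside the WT range, a log2 fold change of 0.77 ± 0.243 (SE) and an adjusted p of 0.0285 in edgeR. Rfc2, Rfc4 and Rfc5 had log2 fold changes of 0.06, 0.45 and −0.39 (adjusted p = 0.814, 0.187 and 0.154 in edgeR). Rfc5 had 8.52, 9.71, 10.2 and 6.698 CPM in CAPZ_KO 1 to 4, against 15.9, 10.9, 9.86 and 9.53 CPM in WT 1 to 4, with overlap. Its highest library was WT 1 and its lowest were CAPZ_KO 4 and 1. Exons of Eif4a2 and Wsb2 on the opposite strand cover 12.7% of the exon bases of Rfc4 and 10.7% of those of Rfc5. The count ratio of Rfc3 to Rfc5 was 0.931 to 1.22 in CAPZ_KO and 0.453 to 0.554 in WT. Rpa2, a subunit of the single-strand binding protein RPA, had 9.24, 14.6, 15.7 and 8.998 CPM in CAPZ_KO 1 to 4, against 8.902, 7.699, 8.09 and 7.52 CPM in WT 1 to 4. The groups were apart by a narrow margin, with CAPZ_KO 4 just above WT 1 (log2 fold change 0.59 ± 0.2101 (SE), adjusted p = 0.0446 in edgeR). The call of Rfc3 was lost without CAPZ_KO 1, 2 or 3 or without WT 2, 3 or 4 (adjusted p up to 0.101 in edgeR), and that of Rpa2 without CAPZ_KO 2 or 3 or without any 1 WT library (adjusted p up to 0.171 in edgeR).

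Both genes that mature Okazaki fragments, the short pieces of the lagging strand, were higher. Lig1, the ligase that seals them, had 13.97, 13.7, 17.05 and 9.87 CPM in CAPZ_KO 1 to 4, against 4.08, 4.28, 2.98 and 5.51 CPM in WT 1 to 4. Its groups lay well apart, with a log2 fold change of 1.69 ± 0.2298 (SE, adjusted p = 0.000356 in edgeR). Fen1, the nuclease that trims their flaps, had 10.4, 11.1, 14.6 and 8.59 CPM in CAPZ_KO 1 to 4, against 5.68, 6.12, 4.97 and 3.18 CPM in WT 1 to 4, a log2 fold change of 1.16 ± 0.2401 (SE, adjusted p = 0.00361 in edgeR). All CAPZ_KO libraries exceeded all WT libraries in both genes. Of the exon bases of Fen1, 78.8% lie under the antisense gene Gm10143.

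The genes of nucleotide supply had no common direction. Rrm1, the large subunit of ribonucleotide reductase, had 24.6, 20.3, 26.7 and 13.6 CPM in CAPZ_KO 1 to 4, against 13.5, 14.8, 12.8 and 16.5 CPM in WT 1 to 4. CAPZ_KO 4 lay inside the WT range, and the call (log2 fold change 0.56 ± 0.203 (SE), adjusted p = 0.0483 in edgeR) was lost when any library but CAPZ_KO 4 was left out, with an adjusted p of up to 0.16 in edgeR. Rrm2, the small subunit whose level follows S phase, had 14.2, 6.18, 13.6 and 7.67 CPM in CAPZ_KO 1 to 4, against 7.29, 6.84, 11.9 and 9.72 CPM in WT 1 to 4. CAPZ_KO 1 and 3 were above WT, CAPZ_KO 2 and 4 were not, and it was not called (log2 fold change 0.21 ± 0.296 (SE), adjusted p = 0.589 in edgeR). Tyms, thymidylate synthase, and Dut, which removes dUTP, had log2 fold changes of −0.14 ± 0.242 and −0.10 ± 0.211 (SE, adjusted p = 0.669 and 0.738 in edgeR).

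Tk1, the thymidine kinase of dividing cells, was lower in CAPZ_KO. It had 10.5, 16.2, 14.1 and 10.4 CPM in CAPZ_KO 1 to 4, against 18.98, 20.9, 34.1 and 33.8 CPM in WT 1 to 4. All CAPZ_KO libraries lay below all WT libraries, with WT 3 and 4 highest, and the log2 fold change was −1.08 ± 0.235 (SE, adjusted p = 0.00479 in edgeR). Scaled by library sizes alone it was −0.46 (adjusted p = 0.113 in edgeR), which fell by 1.09 relative to the median of all genes at that scaling. Of its exon bases, 1.6% overlap Afmid on the opposite strand, a gene at 51.8 CPM in CAPZ_KO and 190.9 CPM in WT.

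Genes that restore chromatin behind the fork included the largest rise. Uhrf1, which reads hemimethylated DNA and recruits the maintenance methyltransferase, had 6.58, 8.32, 16.6 and 2.71 CPM in CAPZ_KO 1 to 4, against 1.61, 0.987, 0.781 and 0.778 CPM in WT 1 to 4. CAPZ_KO 3 stood highest, no library overlapped, and the log2 fold change was 3.07 ± 0.536 (SE, adjusted p = 0.00158 in edgeR). Chaf1a, the large subunit of the histone chaperone CAF-1, had 6.13, 7.62, 10.6 and 6.54 CPM in CAPZ_KO 1 to 4, against 1.18, 1.05, 1.06 and 1.62 CPM in WT 1 to 4. It had the smallest adjusted p of the 34 genes (log2 fold change 2.64 ± 0.261 (SE), adjusted p = 6.81e-05 in edgeR). Exons of Ubxn6 on the opposite strand cover 52.5% of its exon bases, and Ubxn6 had a log2 fold change of −0.17 (adjusted p = 0.349 in edgeR). Chaf1b, its partner in the complex, had 4.73, 5.08, 5.62 and 2.71 CPM in CAPZ_KO 1 to 4, against 2.14, 5.92, 2.91 and 2.79 CPM in WT 1 to 4. WT 2 was the highest of all 8 libraries, and Chaf1b was not called (log2 fold change 0.38 ± 0.343 (SE), adjusted p = 0.397 in edgeR). The count ratio of Chaf1a to Chaf1b was 1.3 to 2.42 in CAPZ_KO and 0.178 to 0.581 in WT.

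The ratios given above compare genes within 1 library and do not depend on the scaling between libraries. The choice of pairs was made with the values known, and they have no test. Of 9 pairs computed, 6 had no overlap between the groups, and a further 3 overlapped: Pole2 to Pole, Pole to Pole3 and Rrm1 to Rrm2. As a description with no test, the mean level in WT had a median of 4.12 CPM over the 18 higher genes and 6.07 CPM over the 15 that were not called or not tested.

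The CAPZ_KO libraries differed among themselves in a way that many replication genes shared. Of the 35 genes, 28 were highest in CAPZ_KO 3 and 31 were lowest in CAPZ_KO 4, whereas over all tested genes CAPZ_KO 3 was the highest of its group in 21.4% and CAPZ_KO 4 the lowest in 27.6%. The median deviation from the group mean, in log2(CPM + 1), was −0.06, 0.11, 0.39 and −0.43 in CAPZ_KO 1 to 4. It was 0.13, −0.04, −0.12 and −0.04 in WT 1 to 4. Uncalled genes shared the pattern, since 11 of the 15 uncalled or untested genes were highest in CAPZ_KO 3 and 13 lowest in CAPZ_KO 4. CAPZ_KO 4 is the female library of its group, and with sex as a term 17 of the 18 higher calls were kept. Without CAPZ_KO 4 all 18 were kept, and without CAPZ_KO 3 14 were.

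The mitosis genes followed another order. Of these 16 genes, all 16 were highest in CAPZ_KO 1, with median deviations of 0.87, −0.66, 0.31 and −0.58 in CAPZ_KO 1 to 4. Their summed level was 201.7, 49.6, 108.7 and 53.1 CPM in CAPZ_KO 1 to 4, against 27.8, 33.8, 19.7 and 25.2 CPM in WT 1 to 4. CAPZ_KO 1 thus held the most RNA of mitosis genes and CAPZ_KO 3 the most of replication genes. CAPZ_KO 1 also had the highest sums of stellate cell markers (1235 CPM) and cholangiocyte markers (1088 CPM) and the lowest of hepatocyte markers, and CAPZ_KO 4 the highest of Kupffer cell markers (3337 CPM). Their part in the order of the libraries was not tested.

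**Figure D5:**
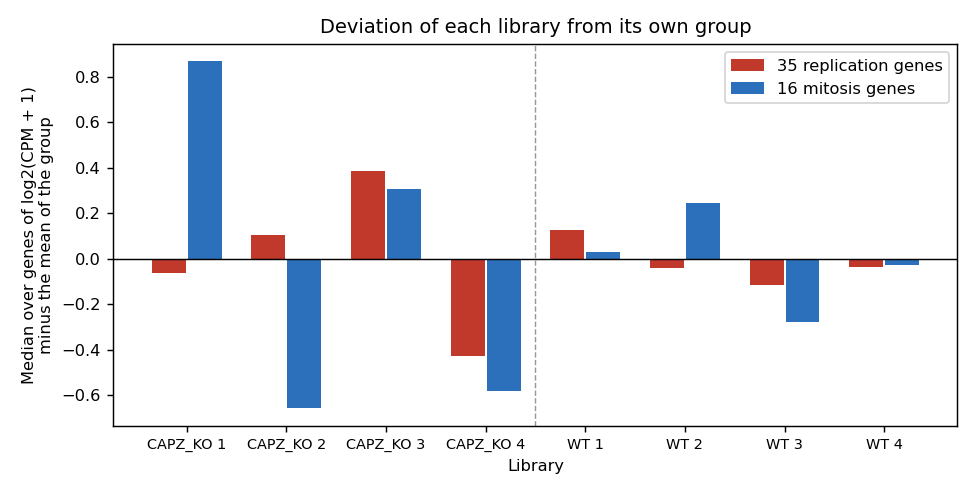
Median over genes of log2(CPM + 1) minus the mean of the library's own group (vertical axis), for 35 replication genes (red) and 16 mitosis genes (blue) in each library, CAPZ_KO left of the dashed line and WT right of it. Among CAPZ_KO libraries the tallest red bar is that of CAPZ_KO 3 (0.39) and the tallest blue bar that of CAPZ_KO 1 (0.87).

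Beyond the 35 genes, 90 tested genes of the same pathway held 28 higher (31.1%, against 22.4% of all tested genes) and 9 lower (against 19% of all tested genes). Their median log2 fold change was 0.27. Of 17 remaining subunits of the complexes described above, 2 were higher and 1 lower, against 22.4% and 19% of all tested genes. Their median was 0.20. Pole2, the second subunit of polymerase epsilon, had 1.76, 1.64, 2.66 and 1.69 CPM in CAPZ_KO 1 to 4, against 0.429, 0.856, 0.7097 and 0.519 CPM in WT 1 to 4 (log2 fold change 1.58 ± 0.319 (SE), adjusted p = 0.00318 in edgeR), without overlap. Gins3, another GINS subunit, had a log2 fold change of 1.03 (adjusted p = 0.0323 in edgeR), a call lost without CAPZ_KO 2 or 3 or without WT 1, 3 or 4 (adjusted p = 0.0531 to 0.0992 in edgeR). Pole4, a small subunit of polymerase epsilon, was lower by −0.57 on the log2 scale (adjusted p = 0.00751 in edgeR), and Rpa1, the large subunit of RPA, was not called at 0.30 (adjusted p = 0.07897 in edgeR).

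Genes of origin firing and of the moving fork had 7 of 20 higher and 3 lower, against 22.4% and 19% of all tested genes. Their median was 0.41. Dtl, which targets CDT1 for destruction in S phase, had 3.695, 3.84, 7.74 and 2.198 CPM in CAPZ_KO 1 to 4, against 1.18, 0.395, 0.7097 and 0.584 CPM in WT 1 to 4. The groups were apart (log2 fold change 2.65 ± 0.459 (SE), adjusted p = 0.001397 in edgeR). Chtf18, of an alternative clamp loader, rose by 1.98 (adjusted p = 0.00308 in edgeR) and was near the floor in WT, with 6, 5, 2 and 5 counts in WT 1 to 4. Dna2, a nuclease and helicase of the lagging strand, had 4.06, 5.48, 5.201 and 3.89 CPM in CAPZ_KO 1 to 4, against 9.33, 11.9, 10.5 and 7.39 CPM in WT 1 to 4, so that all CAPZ_KO libraries were below WT (log2 fold change −1.07 ± 0.204 (SE), adjusted p = 0.002301 in edgeR). Rnaseh2c, a subunit of ribonuclease H2, and Recql4, a helicase, were lower with log2 fold changes of −0.73 and −0.83 (adjusted p = 0.00955 and 0.0475 in edgeR), the second of which was lost without any 1 of 6 libraries, with no filter on low counts, with the replicate block and with sex as a term (adjusted p = 0.0546 to 0.111 in edgeR). Top1, a topoisomerase and the most abundant of the list, was not called (−0.21, adjusted p = 0.341 in edgeR).

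The regulators of this programme were also divided. Of 13 genes of the E2F and RB families and their partners, 5 were higher and 2 lower, against 22.4% and 19% of all tested genes. Their median was 0.37. E2f1, an activating E2F, had 7.98, 8.27, 11.2 and 6.29 CPM in CAPZ_KO 1 to 4, against 4.08, 3.36, 3.69 and 3.76 CPM in WT 1 to 4 (log2 fold change 1.18 ± 0.208 (SE), adjusted p = 0.001505 in edgeR). The groups were apart. E2f2 rose by 1.27 and Rbl1, the RB relative p107, by 0.95 (adjusted p = 0.00643 and 0.00734 in edgeR). Rbl2, the RB relative p130 of resting cells, had 26.6, 25.5, 21.6 and 33.3 CPM in CAPZ_KO 1 to 4, against 31.96, 44.02, 58.6 and 53.4 CPM in WT 1 to 4. CAPZ_KO 4 overlapped WT 1, and the log2 fold change was −0.81 ± 0.201 (SE, adjusted p = 0.00901 in edgeR), while Tfdp2, an E2F partner, was at −0.65 (adjusted p = 0.0212 in edgeR), lost without WT 4 (adjusted p = 0.0516 in edgeR).

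Of 5 S phase cyclin and CDK genes, 2 were higher, against 22.4% of all tested genes, with a median of 0.64. Ccna2, cyclin A2, had 18.97, 2.04, 8.65 and 5.16 CPM in CAPZ_KO 1 to 4, against 2.04, 2.57, 0.639 and 1.69 CPM in WT 1 to 4, so that CAPZ_KO 1 was far above the rest and CAPZ_KO 2 lay inside the WT range. Its log2 fold change was 2.33 ± 0.66 (SE, adjusted p = 0.0191 in edgeR) and 1.57 without CAPZ_KO 1 (adjusted p = 0.0458 in edgeR), and it was not called by limma-voom (adjusted p = 0.0765) or with the replicate block (adjusted p = 0.0539 in edgeR). Cdc25a, a phosphatase that activates CDK2, had a log2 fold change of 0.64 (adjusted p = 0.0429 in edgeR), lost without CAPZ_KO 1, 2 or 3 or WT 1, 3 or 4 and with no filter on low counts. Ccne1, cyclin E1, and Cdk2 were not called (1.18 and −0.31, adjusted p = 0.0809 and 0.149 in edgeR), but Ccne1 passed by DESeq2 (adjusted p = 0.0395) and with the replicate block (adjusted p = 0.0104 in edgeR).

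Of 6 CDK inhibitors tested, 2 were higher and 0 lower, against 22.4% and 19% of all tested genes, with a median of 0.17. Cdkn1a, the inhibitor p21 that is a target of p53, had 168, 114, 131 and 171 CPM in CAPZ_KO 1 to 4, against 12.2, 1.64, 2.27 and 6.87 CPM in WT 1 to 4. The groups were far apart, with the highest WT library, WT 1, at 12.2 CPM, and the log2 fold change was 4.70 ± 0.592 (SE, adjusted p = 0.000412 in edgeR). Without WT 1 it was 5.33. Cdkn2b, the inhibitor p15, rose by 2.42 (adjusted p = 0.00397 in edgeR), and Cdkn1c and Cdkn2d were not called (−0.16 and 0.30, adjusted p = 0.785 and 0.366 in edgeR). Cdkn2b was near the floor in WT, with 1, 2, 8 and 5 counts in WT 1 to 4.

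Of 10 genes that repair and guard forks, 4 were higher and 0 lower, against 22.4% and 19% of all tested genes. Their median was 0.88. Chek1, the checkpoint kinase that answers to ATR, had 1.71, 2.44, 3.69 and 1.23 CPM in CAPZ_KO 1 to 4, against 0.858, 0.526, 0.497 and 0.389 CPM in WT 1 to 4 (log2 fold change 2.02 ± 0.421 (SE), adjusted p = 0.00376 in edgeR). All its CAPZ_KO libraries lay above all WT libraries, with CAPZ_KO 3 highest. Exo1, a nuclease, rose by 2.36 and Rad51ap1 by 2.25 (adjusted p = 0.00917 and 0.0268 in edgeR). Both were near the floor in WT, with 4, 2, 1 and 4 counts in WT 1 to 4 for Exo1 and 4, 6, 6 and 0 for Rad51ap1. The call of Rad51ap1 was lost without CAPZ_KO 1 or 3 or without WT 2 (adjusted p = 0.0507 to 0.0806 in edgeR). Atr itself was not called (0.20, adjusted p = 0.339 in edgeR).

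The further nucleotide genes had 3 of 10 higher and 2 lower, near the 22.4% and 19% of all tested genes, and their median was −0.0073. Shmt1, which supplies one-carbon units for thymidylate and is abundant in liver, had 76.2, 94, 104 and 96.4 CPM in CAPZ_KO 1 to 4, against 218, 210.4, 220.0 and 254 CPM in WT 1 to 4. The groups were far apart (log2 fold change −1.29 ± 0.136 (SE), adjusted p = 9.09e-05 in edgeR). Dck, a salvage kinase, rose by 0.86 and Dctd, dCMP deaminase, by 2.88 (adjusted p = 0.00251 and 0.00422 in edgeR). Dctd was near the floor, with means of 0.994 CPM in CAPZ_KO and 0.126 CPM in WT and with 1, 0, 1 and 5 counts in WT 1 to 4. Its log2 fold change was 4.06 without WT 4. Shmt1 remained lower with library sizes alone.

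Chromatin factors of replication had 3 of 9 higher and 1 lower, against 22.4% and 19% of all tested genes, with a median of −0.01. Hells, a chromatin remodeller that works with UHRF1, had 4.87, 3.74, 8.83 and 3.12 CPM in CAPZ_KO 1 to 4, against 0.858, 0.461, 0.639 and 1.62 CPM in WT 1 to 4 (log2 fold change 2.499 ± 0.455 (SE), adjusted p = 0.00184 in edgeR). Asf1b, a histone chaperone, rose by 1.73 and Dnmt1, the maintenance methyltransferase, by 0.74 (adjusted p = 0.00217 and 0.00613 in edgeR). Rbbp4, a histone binding subunit that CAF-1 shares with other complexes, was at −0.62 (adjusted p = 0.0192 in edgeR), lost without WT 3. With library sizes alone none of Pole4, Dna2, Rnaseh2c, Recql4, Rbl2, Tfdp2 and Rbbp4 was lower by the test, and Rpa1, Ccne1, Cdkn2d and Atr were higher by it.

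For comparison with the phase that follows, 13 of 15 tested mitosis genes were higher and 0 lower, against 22.4% and 19% of all tested genes. Their median log2 fold change was 1.98, against 0.67 over the replication genes. The difference between the medians was not tested. Cdk1, the kinase of mitotic entry, had 17.98, 7.17, 13.9 and 5.01 CPM in CAPZ_KO 1 to 4, against 2.79, 1.97, 2.27 and 2.59 CPM in WT 1 to 4 (log2 fold change 2.20 ± 0.391 (SE), adjusted p = 0.00169 in edgeR). The groups were apart. Plk1, a mitotic kinase, had 3.16 (adjusted p = 0.00252 in edgeR) and 2.44 without CAPZ_KO 1, and was low in WT, with 6, 8, 5 and 7 counts in WT 1 to 4. Top2a, a topoisomerase, and Bub1b, of the spindle checkpoint, rose by 1.86 and 1.66 (adjusted p = 0.002602 and 0.00506 in edgeR). Mki67, which encodes the proliferation marker Ki-67, had 33.97, 4.73, 10.04 and 7.98 CPM in CAPZ_KO 1 to 4, against 4.29, 5.66, 2.56 and 2.98 CPM in WT 1 to 4, with 1 library, CAPZ_KO 1, far above the others. Its log2 fold change of 1.88 ± 0.599 (SE, adjusted p = 0.0326 in edgeR) was 0.94 without CAPZ_KO 1 (adjusted p = 0.0582 in edgeR), and limma-voom did not call it (adjusted p = 0.0869). The call was also lost without WT 1, 3 or 4 and with no filter on low counts (adjusted p = 0.0613 to 0.0828 in edgeR).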

How the data were processed

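The deposited values are unscaled counts of reads for each gene symbol and library. Tools listed in the submitters' processing notes, without role, are STAR 2.5.3a, bcl2fastq, edgeR, featureCounts and R 3.3.1, and the build listed is mm10. The sources used here give neither the strand setting nor the annotation, so reads of overlapping genes and of copies may be divided in unknown ways. Per the labels' protocols the libraries were stranded.

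Genes were filtered with filterByExpr (minimum count 10, minimum total count 15), which left 12985 genes, scaled by TMM and tested with the quasi-likelihood test of edgeR 4.0.16 with robust dispersion (R 4.3.3, limma 3.58.1), all 8 libraries and no covariate. Adjusted p-values are Benjamini-Hochberg values over all genes tested, with a threshold of 0.05. SE is the size of the log2 fold change divided by the square root of F. 6905 symbols had no count, and the genes filtered out held 0.0451% to 0.109% of each library's counts. The common biological coefficient of variation was 24.9%. For CAPZ_KO over WT the test was run on simulated counts of 12985 genes. It called 6 of 12626 unchanged genes and 3 of 50 with a 1.5-fold change. Of genes with a 2-fold change it called 24 of 48, with a 4-fold change 46 of 50, and with an 8-fold change 49 of 49. Far fewer genes were changed in the simulation than the 5382 called in the data, and the adjustment of p depends on that number. The simulated shares therefore do not tell how many changes of a given size were missed in the data. No library pair of a group agreed within counting noise.

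RPKM is CPM per kilobase of exon, over the union of exons of GENCODE vM21 (GRCm38, the same assembly as mm10). Promoter windows come from RefSeq on GRCm38.p6. The 35 genes, the further lists, the marker lists and the promoter words were chosen with earlier results of these data known. From each further list the genes named are up to 4 with the smallest p, those called against the majority of the list and the one with the highest mean CPM, and some genes that this rule names are not reported here. The rule on promoters also covered every uncalled gene, of which only Pcna and Pola1 are shown, for length. These 2 and Mcm10 were chosen after their values were seen. Alternatives were other scalings, other filters, DESeq2 1.42.0, limma-voom, the replicate number as a block, sex as a term and leaving out each library.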

Additional observations from a re-analysis of the deposited data

Results flagged for a closer look

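Of 154 groups of 4 libraries examined, 2 held a library far from the other 3 (a gap over the range above Dixon's critical value for 4 samples), where chance flags about 1 in 20 groups. Pole2 was at 2.66 CPM in CAPZ_KO 3, against 1.64 to 1.76 CPM in the other CAPZ_KO libraries, with a gap of 0.888 of the range. Rad51ap1 was at 0 CPM in WT 4, against 0.395 to 0.429 CPM in the other WT libraries, with a gap of 0.92 of the range.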

How the results depend on the processing

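Over the 34 tested replication genes and all alternatives, 483 log2 fold changes kept direction and side of the threshold, 33 lost the call, 13 gained it with the same sign and 15 changed sign, among them Pola1, which was called higher with library sizes alone. Scaling by library sizes alone moved most. It gave 7665 genes higher and 700 lower (2913 and 2469 with TMM), 28 replication genes higher and 1 lower (18 and 2), and 69 further pathway genes higher and 1 lower (28 and 9), and it moved the median of all genes to 0.62. The log2 fold changes of Gins1, Pola1, Rfc5, Tyms and Dut were then 0.44, 0.57, 0.24, 0.50 and 0.54. Leaving out 1 library at a time changed the sign of 6 genes that were not called in the full data, with ranges of −0.018 to 0.20 for Gmnn, −0.14 to 0.033 for Pola1, −0.095 to 0.18 for Rfc2, −0.34 to 0.028 for Tyms, −0.0085 to 0.38 for Rrm2 and −0.25 to 0.027 for Dut. Leaving out 1 library at a time gave 14 to 22 replication genes higher, 19 to 30 further pathway genes higher and 2371 to 2964 genes higher in all. Without CAPZ_KO 4, all 18 calls were kept and Cdc45, Prim1 and Rfc4 were added. Orc1 was then also called, but it entered the test only through its CAPZ_KO counts. These were 10, 13 and 19 in CAPZ_KO 1 to 3, against 1, 1, 0 and 2 in WT 1 to 4. Deviations of same-numbered libraries correlated at 0.244, 0.0089, 0.066 and 0.303, and 5 of 8 libraries correlated best with their own number. The libraries numbered 4 are the female ones of both groups. These values do not settle whether the numbers pair the libraries, and the main fit did not pair them. With the replicate block 15 of the 18 higher calls were kept, and Pole, Rpa2 and Rrm1 had adjusted p of 0.0562, 0.0604 and 0.0899 in edgeR. With all 8 libraries Orc1, with 5 counts in CAPZ_KO 4 and 4 over the WT libraries, did not pass the filter of the main fit and was tested only with no filter on low counts.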

Other observations

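The genes beside Mcm10 were read after its values had been seen. Optn, a neighbour on chromosome 2, was at 84.2 CPM in CAPZ_KO and 91.4 CPM in WT (log2 fold change −0.12, adjusted p = 0.506 in edgeR). Phyh, a peroxisomal hydroxylase of phytanic acid that is abundant in liver, was at 667 CPM in CAPZ_KO and 2188 CPM in WT (log2 fold change −1.71, adjusted p = 0.000138 in edgeR). Ucma had no count in any library.

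Exons of several further replication genes overlap genes on the opposite strand. Eif4a2, whose exons cover 12.7% of those of Rfc4, was at 136.5 CPM in CAPZ_KO and 256.9 CPM in WT (log2 fold change −0.91, adjusted p = 0.00472 in edgeR). Wsb2, which covers 10.7% of Rfc5, had a log2 fold change of 0.22 (adjusted p = 0.157 in edgeR), and Vps35, which covers 6.93% of Orc6, had 0.09 (adjusted p = 0.636 in edgeR). Of the exon bases of Fen1, 78.8% lie under Gm10143, an antisense gene without a value in the counts used here.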
